A study of Mus musculus with 4 samples.

Results

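The matrix metalloproteases (MMP), the ADAM and ADAMTS metalloproteases, the ADAMTS-like proteins (ADAMTSL) and the tissue inhibitors of metalloproteases (TIMP) were examined as 1 group of genes. The rule for members used the gene symbol alone: Mmp, Adam, Adamts, Adamtsl or Timp followed by a number. It used no measured value, but the choice was made with earlier results of these data known. This gave 84 of the 21993 genes, namely 23 MMP, 33 ADAM, 19 ADAMTS, 5 ADAMTSL and 4 TIMP genes. RNA sequencing covered 4 mouse libraries labelled as uterine NK cells, sorted by flow cytometry as negative for CD3 and positive for CD45 and NK1.1, at gd11.5 (gd, gestational day) from females mated to B6 males. In 2 libraries the mice carried Cre recombinase driven from Ncr1 (Ncr1Cre), and in the other 2 libraries the mice had no Cre (control); the genotype labels differ in Cre alone. Ncr1 encodes the activating receptor NKp46 of NK cells and related innate lymphoid cells, so this Cre acts in those cells. The labels do not say whether replicate libraries stem from different mice, and the p-values measure only the spread between them, which may be technical. The comparison asks which of these genes differ between the genotypes.

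MMPs are secreted or membrane-bound zinc enzymes, made as inactive precursors, that cut collagens, proteoglycans and many cell-surface proteins. ADAMs are transmembrane relatives that release the outer part of membrane proteins, such as growth factor precursors and Notch receptors. ADAMTS enzymes are secreted and act in the matrix on proteoglycans and procollagens, and the ADAMTS-like proteins resemble them without a protease domain. TIMPs bind the active sites of these enzymes and block them. In the pregnant uterus the stroma is rebuilt into decidua, and these enzymes and inhibitors take part in that remodelling of matrix and vessels.

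Expression was given as FPKM, a level scaled to transcript length and sequencing depth, so that genes of different length can be compared. The total over all genes was 460108 and 468192 FPKM in Ncr1Cre, against 384852 and 396770 in control. Steps of whole fragments in the low values implied 20970000 to 38455000 fragments per library, so that 1 fragment on 1 kb was worth 0.0260 to 0.0477 FPKM and values well below 1 rest on few fragments. The genes behind the sort were low: Ncr1 stood at 0 and 0.152 FPKM in Ncr1Cre against 0.136 and 0.359 in control, and Klrb1c, the gene of NK1.1, at 0.924 and 0.673 against 0.449 and 0.973. Cd3e stood at 0.0796 and 0.134 in Ncr1Cre and was listed at 0 in both control libraries. Ptprc, the gene of CD45, stood at 4.39 and 5.16 in Ncr1Cre and at 2.89 and 2.57 in control. Markers of decidual stroma and fibroblasts were far higher than NK markers in every library. Their 16 genes summed to 12125 and 12289 FPKM in Ncr1Cre and to 25555 and 26319 in control, while the 14 NK and sort genes summed to 44.0 and 43.9 in Ncr1Cre and to 29.0 and 29.2 in control. In such mixed RNA, fewer cells of a type and less RNA per cell cannot be told apart.

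Of the 84 members, 40 averaged 1 FPKM or more and were tested, 28 lay below that level and 16 were listed at 0 in all libraries. Of the tested members, 5 were higher and 26 lower in Ncr1Cre, and 9 were not called (limma on log2(FPKM + 1), Benjamini-Hochberg adjusted p under 0.05 over all genes tested). These 31 calls are 77.5% of the tested members, where 48.5% of all 11762 tested genes were called. Lower values made up 65% of the tested members against 17.6% of all tested genes, and higher values 12.5% against 30.9%. The median log2 fold change, Ncr1Cre minus control, was -0.50 over the tested members and 0.11 over all tested genes. Most tested genes showed no overlap of the genotypes: of 11762, 5455 were higher and 3512 lower in this way. Of the 40 tested members, 6 were higher and 27 lower without overlap, so lack of overlap alone does not set a member apart. After rescaling each library by its median, all tested genes split into 2950 higher and 2709 lower calls, in place of 3638 and 2071, and under quantile normalization into 2615 higher and 3032 lower, so the larger side of the background depends on the scaling. Each scaling called 32 members. These included all 31 members called without rescaling.

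**Figure D1:**
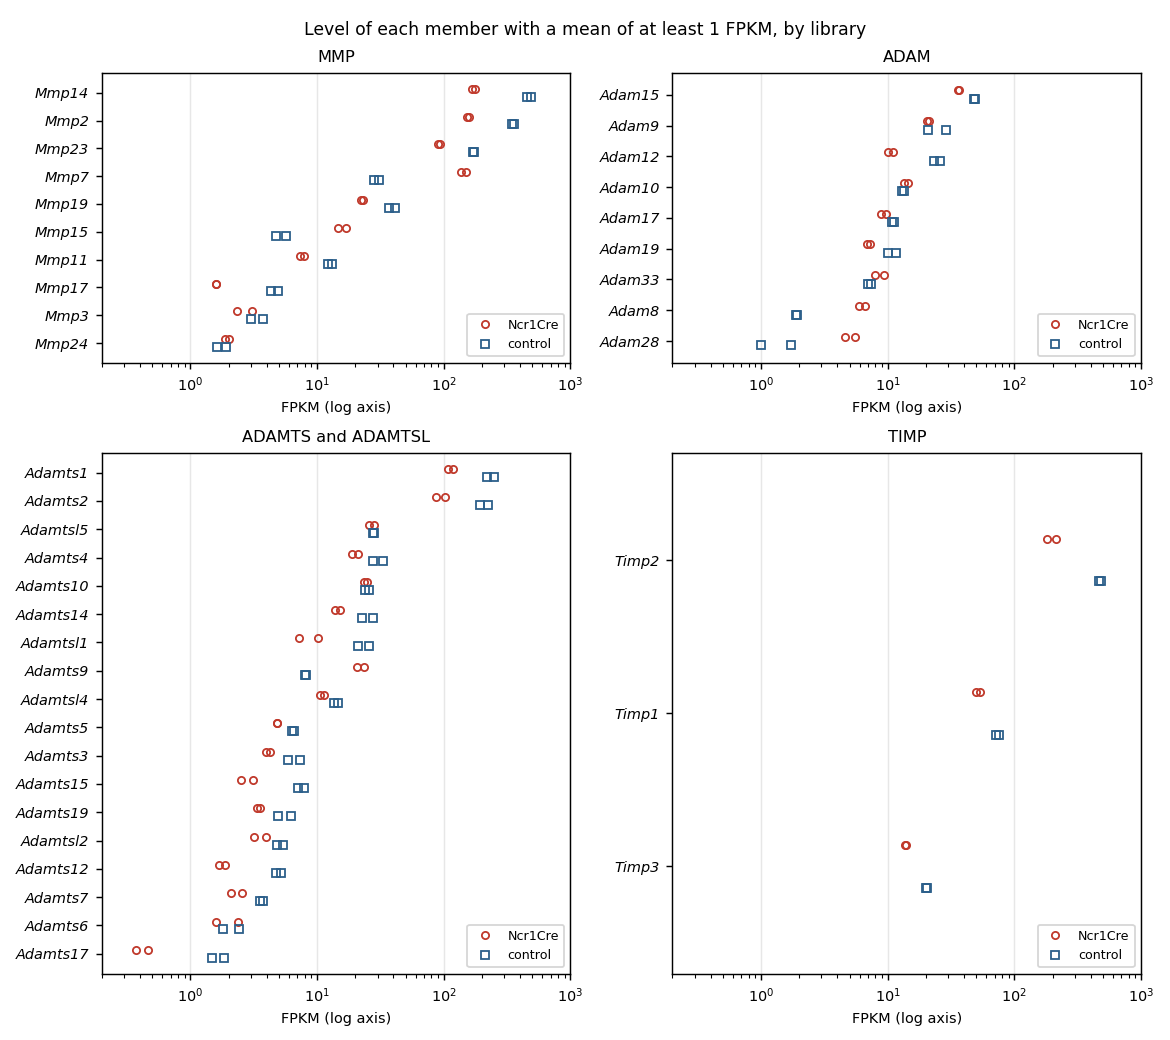
FPKM on a log axis of each member with a mean of at least 1 FPKM, in 4 panels for MMP, ADAM, ADAMTS with ADAMTSL, and TIMP genes. Each open circle is 1 Ncr1Cre library and each open square 1 control library. The squares of Mmp14, Mmp2, Timp2, Adamts1 and Adamts2 lie to the right of the circles, while the circles of Mmp7, Mmp15, Adam8, Adam28 and Adamts9 lie to the right of the squares.

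Of 10 tested MMP genes, 2 were higher and 6 lower (median log2 fold change -0.72). Of 18 tested ADAMTS and ADAMTSL genes, 1 was higher and 14 lower (median -0.56). The 3 tested TIMP genes were all lower (median -0.50), and Timp4 was not tested. Of 9 tested ADAM genes, 2 were higher and 3 lower (median -0.21), and the 55.6% called there is close to the 48.5% over all tested genes. Summed over all its members, the MMP family stood at 615.8 and 619.2 FPKM in Ncr1Cre against 1106 and 1084 in control. The TIMP sums were 276.4 and 248.2 in Ncr1Cre against 570.2 and 563.4 in control. ADAMTS and ADAMTSL genes summed to 381.2 and 338.7 in Ncr1Cre against 678.3 and 604.5 in control, and ADAM genes to 120.8 and 117.1 against 150.1 and 139.7. With 2 libraries per genotype an exact permutation test cannot give less than p = 0.333, so the sums carry no test.

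**Figure D2:**
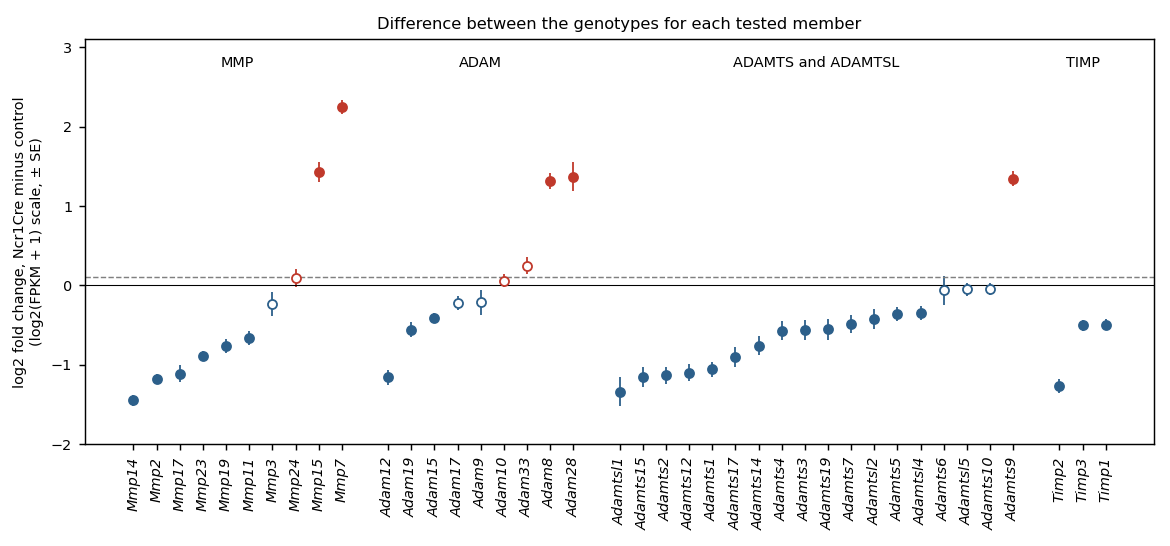
Log2 fold change of each tested member, Ncr1Cre minus control, on the log2(FPKM + 1) scale with its standard error, ordered within each family. Filled points passed an adjusted p of 0.05 and open points did not, red points lie above 0 and blue points below, and the dashed line is the median of all tested genes, 0.11. Within the MMP, ADAM, and ADAMTS with ADAMTSL families the called values lie on both sides of 0, and the 3 TIMP genes lie below it.

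Mmp14, Mmp2 and Timp2, whose products form a complex at the cell surface in which the membrane protease MMP14 and the inhibitor TIMP2 activate the gelatinase MMP2, were among the highest members and were all lower in Ncr1Cre. Mmp14 had 177 and 168 FPKM in the Ncr1Cre libraries and 492 and 455 FPKM in the control libraries. Mmp2 had 152 and 157 FPKM in Ncr1Cre and 346 and 357 in control. Timp2 had 212 and 181 FPKM in Ncr1Cre and 478 and 468 in control. For each of the 3 genes both Ncr1Cre libraries lay below both control libraries. The log2 fold changes were -1.45 for Mmp14 (SE 0.071, limma adjusted p = 0.000255), -1.18 for Mmp2 (SE 0.061, adjusted p = 0.000278) and -1.27 for Timp2 (SE 0.093, adjusted p = 0.000610). The ratio of Mmp14 to Timp2 in FPKM was 0.834 and 0.931 in Ncr1Cre and 1.03 and 0.972 in control, a far smaller difference than in either gene. Mmp2 over Timp2 was 0.715 and 0.871 in Ncr1Cre and 0.722 and 0.762 in control, and these values overlap.

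The promoters of Mmp14 and Timp2 are shown because these are the highest MMP and the highest TIMP gene and fell together. Each window runs from 250 bases before to 50 after the start site, 5′ to 3′ on the strand of the gene (RefSeq, GRCm38.p6, a newer build than the mm9 of the values). Capitals mark the GC box GGGCGG on either strand, the core of the sequence that Sp1-type factors bind. Mmp14 lies at chr14:54431348-54431647 on the plus strand and Timp2 at chr11:118355362-118355661 on the minus strand.
Mmp14 promoter: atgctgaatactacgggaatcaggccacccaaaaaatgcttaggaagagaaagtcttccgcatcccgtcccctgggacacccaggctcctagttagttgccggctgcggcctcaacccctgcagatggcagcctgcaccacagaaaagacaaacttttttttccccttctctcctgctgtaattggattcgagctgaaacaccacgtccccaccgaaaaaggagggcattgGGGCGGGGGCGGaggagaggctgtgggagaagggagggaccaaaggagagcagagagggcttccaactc
Timp2 promoter: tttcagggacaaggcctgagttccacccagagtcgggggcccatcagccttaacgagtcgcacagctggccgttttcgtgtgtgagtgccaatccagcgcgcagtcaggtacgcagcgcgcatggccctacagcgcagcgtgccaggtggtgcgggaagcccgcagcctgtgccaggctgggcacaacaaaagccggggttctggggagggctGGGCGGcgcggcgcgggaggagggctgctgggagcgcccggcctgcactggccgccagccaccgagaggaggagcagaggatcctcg
Neither window holds TATAAA or the AP-1 sequence TGANTCA, the site of Fos and Jun dimers. The GC box was found in 35.7% of all 32851 promoter windows and in 72.4% of the 29 windows of tested members. It is not particular to genes that fell: Mmp15, Adam8 and Adamts9, which rose, also had it, while Mmp7 did not. For Mmp2 the promoter is not shown.

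Timp1 and Timp3 were also lower, with smaller fold changes than Timp2. Timp1, an inhibitor of most secreted MMPs, had 50.2 and 53.4 FPKM in Ncr1Cre and 71.4 and 75.4 in control (log2 fold change -0.49, SE 0.072, limma adjusted p = 0.00475). Timp3, which is bound to the matrix and also inhibits ADAM17 and the aggrecanases, had 13.8 and 14.0 in Ncr1Cre and 20.3 and 19.9 in control (-0.50, SE 0.073, adjusted p = 0.00471). In both genes, as in most tested genes, the genotypes did not overlap. Timp4 was at most 0.172 FPKM in any library. The share of Timp2 in the TIMP sum was 76.9% and 72.8% in Ncr1Cre and 83.9% and 83.1% in control, and Timp2 was 4.23 and 3.38 times Timp1 in Ncr1Cre against 6.70 and 6.21 times in control. Timp1 lies inside Syn1 and Timp3 inside Syn3, each on the opposite strand, and exons of Timp3 overlap those of Syn3. Whether the counting used the strand is not given in the sources used here.

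Among the other membrane-type MMPs, Mmp15 and Mmp17 went opposite ways. Mmp15, a close relative of Mmp14, had 17.0 and 14.5 FPKM in Ncr1Cre against 5.67 and 4.75 in control, which is 3.03-fold higher (log2 fold change 1.43, SE 0.12, limma adjusted p = 0.000971). Mmp17, anchored by a lipid rather than by a transmembrane segment, had 1.60 FPKM in both Ncr1Cre libraries against 4.96 and 4.33 in control (-1.11, SE 0.11, adjusted p = 0.00136). Mmp24 was not called, with 1.88 and 2.02 FPKM in Ncr1Cre against 1.62 and 1.91 in control. Mmp14 had the highest level of the membrane-type genes in every library.

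Mmp7 rose most among the tested members. It encodes matrilysin, a small MMP without the C-terminal domain of its relatives that glandular epithelia secrete. Mmp7 had 136 and 150 FPKM in the Ncr1Cre libraries and 27.9 and 30.8 FPKM in the control libraries. Both Ncr1Cre libraries lay far above both control libraries, 4.87-fold by the means (log2 fold change 2.25, SE 0.087, limma adjusted p = 0.000178). Mmp7 made up 22.1% and 24.2% of the MMP sum in Ncr1Cre and 2.52% and 2.84% in control, while Mmp14 made up 28.8% and 27.2% in Ncr1Cre and 44.5% and 42.0% in control. The ratio of the TIMP sum to the MMP sum was 0.449 and 0.401 in Ncr1Cre and 0.516 and 0.520 in control. Without Mmp7 it was 0.576 and 0.529 in Ncr1Cre and 0.529 and 0.535 in control, and the genotypes then overlapped. The antisense gene AV064505 overlaps exons of Mmp7.

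**Figure D3:**
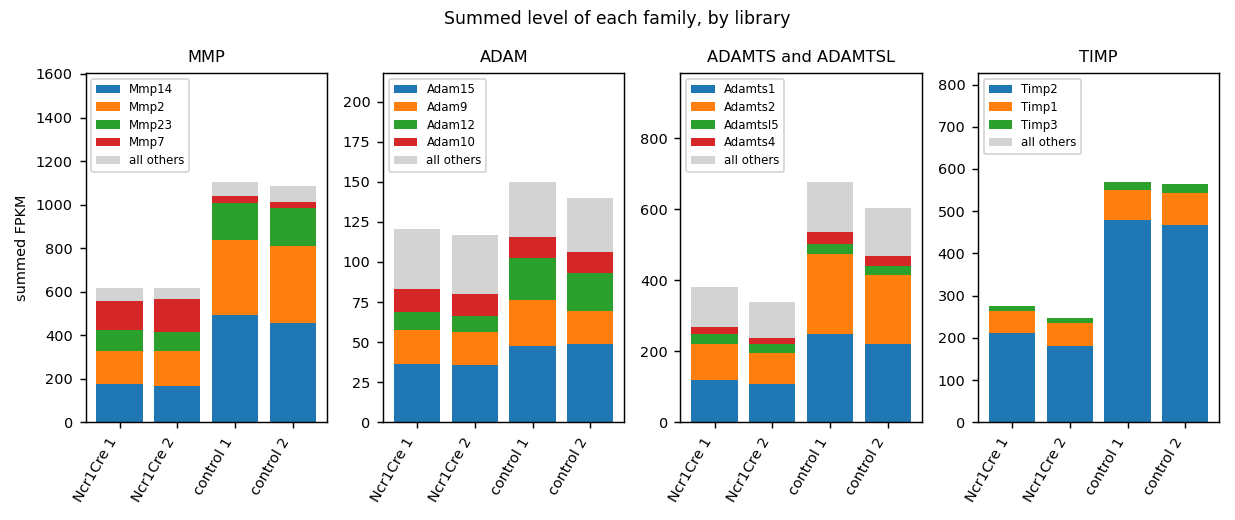
Summed FPKM of each family in each library, as stacked bars that start at 0, with the members of the highest mean in colour and all other members in grey. The MMP, TIMP and ADAMTS with ADAMTSL bars are lower in the 2 Ncr1Cre libraries than in the 2 control libraries, and the red Mmp7 segment is larger in Ncr1Cre, at 136 and 150 FPKM against 27.9 and 30.8.

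Mmp7 stands at one end of a run of 10 Mmp genes on chromosome 9, in the order Mmp13, Mmp12, Mmp1b, Mmp3, Mmp1a, Mmp10, Mmp8, Mmp27, Mmp20 and Mmp7. These include the collagenase genes (Mmp1a, Mmp1b, Mmp8 and Mmp13), the stromelysin genes Mmp3 and Mmp10 and the macrophage elastase gene Mmp12. Of the 10, Mmp7 and Mmp3 reached the level for testing. Mmp3 had 2.35 and 3.08 FPKM in Ncr1Cre against 3.01 and 3.71 in control, which overlap, and was not called. No other gene of the run exceeded 0.652 FPKM in any library, the highest value of Mmp10. Below the level for testing, Mmp13 had 0.435 and 0.310 FPKM in Ncr1Cre against 0.0964 and 0.122 in control, and Mmp12 had 0.257 and 0.292 against 0.0721 and 0.0872. These values are low and the exons of Mmp12 and Mmp1b overlap.

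**Figure D4:**
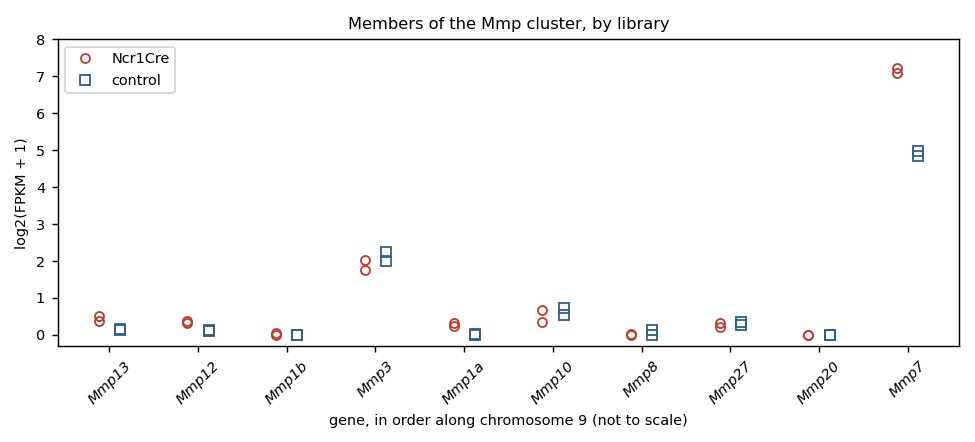
Level of the 10 Mmp genes of chromosome 9 as log2(FPKM + 1), in their order along the chromosome and not to scale. Each circle is 1 Ncr1Cre library and each square 1 control library, and Mmp7 stands at 136 and 150 FPKM in Ncr1Cre and 27.9 and 30.8 in control while no other gene of the run exceeds 3.71 FPKM.

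The promoters of Mmp7 and Mmp3, the 2 tested genes of this run, are shown because they share a layout that Mmp14 and Timp2 lack, while their levels differed. Windows and orientation are as above (RefSeq, GRCm38.p6), and capitals mark TGANTCA and TATAAA on either strand. The Mmp7 window is chr9:7691840-7692139 and the Mmp3 window chr9:7445572-7445871, both on the plus strand.
Mmp7 promoter: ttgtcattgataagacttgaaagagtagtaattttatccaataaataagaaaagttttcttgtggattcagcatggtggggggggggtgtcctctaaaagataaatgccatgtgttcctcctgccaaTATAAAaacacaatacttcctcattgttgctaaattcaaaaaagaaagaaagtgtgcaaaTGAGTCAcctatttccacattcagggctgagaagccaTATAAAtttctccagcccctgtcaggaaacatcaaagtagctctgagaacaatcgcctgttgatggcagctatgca
Mmp3 promoter: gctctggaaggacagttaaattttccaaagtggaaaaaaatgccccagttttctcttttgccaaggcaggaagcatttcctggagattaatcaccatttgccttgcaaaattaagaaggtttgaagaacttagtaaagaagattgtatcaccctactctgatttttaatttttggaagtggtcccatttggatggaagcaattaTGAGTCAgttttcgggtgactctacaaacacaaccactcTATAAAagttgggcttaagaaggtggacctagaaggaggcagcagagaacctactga
The AP-1 sequence begins 63 bases before the start site in Mmp7 and 46 bases before it in Mmp3, and TATAAA begins 26 bases before it in Mmp7, with another match at 123, and 7 bases before it in Mmp3. A second annotated window of Mmp7 holds none of these motifs. Of the 10 genes of the run, 8 had TGANTCA in a window, 9 had TATAAA and 0 had the GC box. Among the 43 other members with a window, 5 had TGANTCA, 6 had TATAAA and 27 had the GC box. Over all windows TGANTCA was found in 7.81% and TATAAA in 13.6%. These are matches of letters in a window of 300 bases, and most genes of the run with the same matches were near 0 FPKM in these libraries.

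The remaining tested MMP genes were lower in Ncr1Cre. Mmp23, which encodes a membrane-anchored MMP that is released by cleavage, had 93.2 and 90.1 FPKM in Ncr1Cre against 172 and 170 in control (log2 fold change -0.89, SE 0.061, limma adjusted p = 0.000504). Mmp19, expressed in many tissues, had 22.9 and 22.4 in Ncr1Cre against 37.0 and 41.5 in control (-0.76, SE 0.085, adjusted p = 0.00197). Mmp11, a stromelysin that furin activates inside the cell, had 7.81 and 7.38 in Ncr1Cre against 13.2 and 12.1 in control (-0.67, SE 0.090, adjusted p = 0.00375). For these 3 genes, as for most tested genes, the genotypes did not overlap. The second gelatinase gene, Mmp9, lay between 0.113 and 0.234 FPKM. Other MMP genes below the level for testing were Mmp1a, Mmp1b, Mmp8, Mmp10, Mmp12, Mmp13, Mmp16, Mmp25, Mmp27 and Mmp28, with 1.52 FPKM as the highest single value (Mmp28), and Mmp20 and Mmp21 were listed at 0 in all libraries.

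Within the ADAMTS family the highest genes fell and Adamts9 rose. Adamts1, a protease of the proteoglycan versican that is required in the mouse for normal ovulation, had 118 and 107 FPKM in Ncr1Cre against 250 and 221 in control (log2 fold change -1.06, SE 0.091, limma adjusted p = 0.000955). Adamts9, which also cuts versican, had 23.4 and 20.7 FPKM in Ncr1Cre against 8.16 and 7.98 in control (1.34, SE 0.093, adjusted p = 0.000517). For both genes the genotypes were well apart, in opposite directions. The other tested proteoglycan-cleaving genes were lower in Ncr1Cre: Adamts15 had 3.14 and 2.53 FPKM against 7.93 and 7.10 in control (-1.15, SE 0.12, adjusted p = 0.00182). Adamts4 had 21.2 and 18.8 in Ncr1Cre against 33.1 and 27.4 in control (-0.57, SE 0.12, adjusted p = 0.0148). Adamts5 had 4.80 and 4.84 in Ncr1Cre against 6.56 and 6.33 in control (-0.36, SE 0.088, adjusted p = 0.0250). Exons of Adamts9 overlap those of A730049H05Rik and Gm15737 on the opposite strand.

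All 3 procollagen N-proteinase genes, whose products trim the amino-terminal end of fibrillar procollagens, fell. Adamts2 had 102 and 87.1 FPKM in Ncr1Cre against 224 and 193 in control (log2 fold change -1.13, SE 0.11, limma adjusted p = 0.00146). Adamts14 had 15.1 and 13.8 in Ncr1Cre against 27.8 and 22.6 in control (-0.76, SE 0.12, adjusted p = 0.00627), and Adamts3 had 4.27 and 3.95 against 7.27 and 5.86 in control (-0.56, SE 0.13, adjusted p = 0.0180). Both Ncr1Cre libraries were below both control libraries for each gene. Adamts1 and Adamts2 together made up 57.6% and 57.4% of the ADAMTS and ADAMTSL sum in Ncr1Cre and 69.9% and 68.5% in control.

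Of the pair that cuts the cartilage protein COMP, Adamts12 had 1.87 and 1.69 FPKM in Ncr1Cre against 5.21 and 4.72 in control (log2 fold change -1.10, SE 0.11, limma adjusted p = 0.00133), and Adamts7 had 2.54 and 2.09 against 3.73 and 3.55 (-0.49, SE 0.12, adjusted p = 0.0213). Adamts17 stood at 0.463 and 0.372 FPKM in Ncr1Cre against 1.48 and 1.84 in control (-0.90, SE 0.13, adjusted p = 0.00420). With a pseudocount of 0.1 in place of 1 its log2 fold change was -1.76. Adamts19 stood at 3.55 and 3.34 in Ncr1Cre against 6.18 and 4.91 in control (-0.55, SE 0.13, adjusted p = 0.0201). Adamts10, which binds fibrillin microfibrils, had 24.6 and 23.5 in Ncr1Cre against 25.6 and 24.1 in control and was not called, nor was Adamts6, with 2.37 and 1.60 against 1.80 and 2.42. Among the ADAMTS-like genes, Adamtsl1 had 10.2 and 7.13 FPKM in Ncr1Cre against 21.0 and 25.6 in control (-1.34, SE 0.19, adjusted p = 0.00410). The fibrillin-binding members were lower by less, with -0.42 for Adamtsl2 (adjusted p = 0.0436) and -0.35 for Adamtsl4 (adjusted p = 0.0252), and Adamtsl5 was not called (27.9 and 25.7 against 28.2 and 27.4). Without replicate 1 of the control, fewer genes were called over all tested genes. Among the 15 calls in these 2 families, those of Adamts3, Adamts4, Adamts5, Adamts7, Adamts19, Adamtsl2 and Adamtsl4 were then lost. Of these, Adamts5 lost its call without any 1 of the 4 libraries (0.0754 to 0.118), Adamts7, Adamtsl2 and Adamtsl4 without replicate 2 of Ncr1Cre or either control library, Adamts19 also without replicate 2 of Ncr1Cre, and Adamtsl2 also without a filter (0.0786). Adamts8, Adamts13, Adamts16, Adamts18, Adamts20 and Adamtsl3 lay below the level for testing, with no value above 0.414 FPKM.

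Among ADAM genes, the sheddases of broad use were not called. Adam10, which cuts Notch receptors, had 14.4 and 13.3 FPKM in Ncr1Cre against 13.02 and 13.5 in control, and Adam17, which releases TNF and EGF-receptor ligands, had 8.90 and 9.63 against 10.7 and 11.2. The genotypes overlapped for Adam10 but not for Adam17, whose log2 fold change was -0.22 (SE 0.087, limma adjusted p = 0.0926). Adam17 passed the test after median rescaling (-0.33, adjusted p = 0.0331) and after quantile normalization (-0.37, adjusted p = 0.0258). Adam9 had 21.3 and 20.5 in Ncr1Cre against 28.7 and 20.7 in control and Adam33 had 9.37 and 8.01 against 7.35 and 6.96, and neither was called.

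Adam8 and Adam28 were the ADAM genes that rose. Adam8, expressed in myeloid and other leukocytes, had 6.58 and 5.97 FPKM in Ncr1Cre against 1.89 and 1.93 in control, 3.29-fold higher (log2 fold change 1.32, SE 0.10, limma adjusted p = 0.000677). Adam28, known from lymphoid tissue, had 4.60 and 5.49 in Ncr1Cre against 1.71 and 1.00 in control (1.37, SE 0.18, adjusted p = 0.00350). Adam12, of muscle, mesenchyme and placenta, had 11.1 and 9.99 in Ncr1Cre against 26.0 and 23.4 in control (-1.16, SE 0.097, adjusted p = 0.000856). Adam19 had 7.22 and 6.84 in Ncr1Cre against 11.53 and 10.1 in control (-0.56, SE 0.10, adjusted p = 0.00907), and Adam15, the highest ADAM gene in each library, had 36.3 and 36.0 against 47.8 and 48.8 (-0.41, SE 0.065, adjusted p = 0.00617). These 5 called genes, like most tested genes, showed no overlap of the genotypes. Adam1a, Adam1b, Adam3, Adam4, Adam5, Adam11, Adam22, Adam23, Adam30 and Adam32 lay below the level for testing, with 1.21 FPKM as the highest value (Adam5). Listed at 0 in all libraries were 14 genes: Adam2, Adam6a, Adam6b, Adam7, Adam18, Adam20, Adam21, Adam24, Adam25, Adam26a, Adam26b, Adam29, Adam34 and Adam39. Most of these low genes are known from the male germ line, and Adam11, Adam22 and Adam23 from nervous tissue.

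Markers of cell types that the libraries could hold moved with these genes, and their part in the results was not tested. The marker lists were chosen with earlier results of these data known. Where MMP, ADAMTS and TIMP genes were lower, 14 of 16 markers of decidual stroma and fibroblasts and 8 of 8 of smooth muscle were lower in both Ncr1Cre libraries than in both control libraries. The other 2 stromal markers, Prl8a2 and Wnt4, were higher in Ncr1Cre. Separation of the genotypes was common: of 11762 tested genes, 5455 were higher without overlap and 3512 were lower without overlap. That background holds only genes that averaged 1 FPKM or more, while the marker counts also take in lower genes. That level was reached by 7 of 8 smooth-muscle, 8 of 12 trophoblast, 6 of 10 macrophage and dendritic cell, and 6 of 8 endothelial markers. The smooth-muscle sums were 218 and 212 FPKM in Ncr1Cre against 596 and 586 in control. Where Mmp7, Mmp15, Adam8, Adam28 and Adamts9 were higher, 12 of 12 epithelial markers were higher too, with sums of 2245 and 2252 in Ncr1Cre against 590 and 566 in control. Trophoblast markers were higher in 11 of 12 genes, with sums of 1164 and 1289 in Ncr1Cre against 398 and 453 in control, and Gcm1 of that list was listed at 0 in all libraries. Of 10 measured macrophage and dendritic cell markers 8 were higher, with sums of 90.8 and 92.1 in Ncr1Cre against 28.0 and 29.9 in control. Of 10 neutrophil markers 8 were higher and 1 lower, with sums of 24.2 and 23.2 in Ncr1Cre against 3.82 and 3.83 in control. Only 3 of the 10 averaged 1 FPKM or more, and 2 of these 3 were called, both higher. S100a8, with 9.84 and 8.30 FPKM, and S100a9, with 9.96 and 10.6, made up most of the Ncr1Cre sums. Endothelial markers were mixed: of 8 genes, 4 were higher and 1, Tek, was lower. Their sums were 31.4 and 31.1 in Ncr1Cre against 17.2 in both control libraries. Cdh5 alone had 13.4 and 13.8 FPKM in Ncr1Cre against 3.09 and 3.27 in control. Of the 14 NK and sort genes, 10 were higher and 0 lower. Of these 14, 7 averaged 1 FPKM or more and 5 of the 7 were called, all higher. That list also holds Ptprc and Cd3e, the latter of a protein that the sort excluded.

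**Figure D5:**
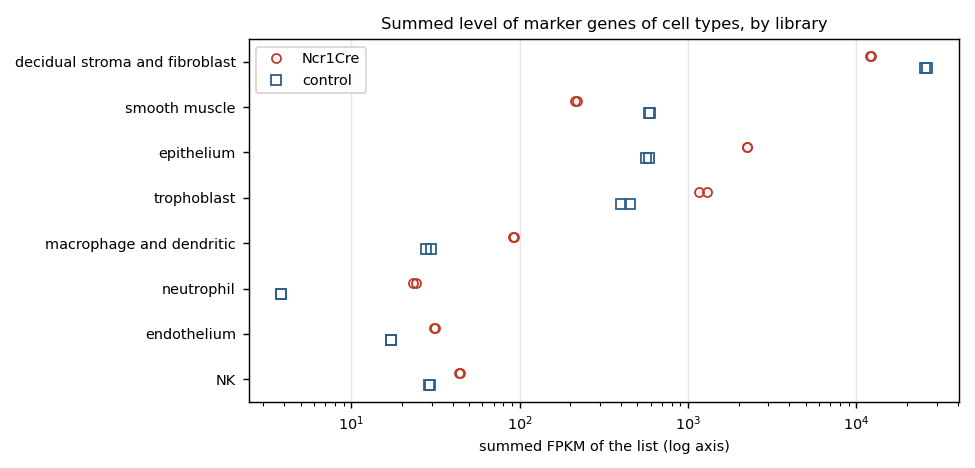
Summed FPKM, on a log axis, of marker genes of 8 cell types in each library, with circles for Ncr1Cre and squares for control. The stromal and smooth-muscle sums are lower in Ncr1Cre and the other 6 sums are higher, and the stromal sum is the highest in every library, at 12125 and 12289 FPKM in Ncr1Cre and 25555 and 26319 in control.

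Genes that activate the precursors of these enzymes changed in both directions. Of 11 tested genes of precursor activation and the plasminogen system, 6 rose and 4 fell (median log2 fold change 0.39). The shares were 54.5% higher and 36.4% lower, beside 30.9% and 17.6% over all tested genes. St14, the epithelial membrane protease matriptase, had 117 and 111 FPKM in Ncr1Cre against 21.1 and 19.7 in control (2.43, SE 0.073, limma adjusted p = 0.000126). Hpn, the related protease hepsin, had 11.2 and 11.1 in Ncr1Cre against 1.54 and 1.58 in control (2.25, SE 0.090, adjusted p = 0.000190). Pcsk6, a proprotein convertase, had 46.9 in both Ncr1Cre libraries against 14.4 and 12.4 in control (1.73, SE 0.093, adjusted p = 0.000294). Of 10 tested genes that inhibit, dock or clear metalloproteases outside the TIMP family, 0 rose and 6 fell (median -0.69), so that 60% were called beside 48.5% over all tested genes, and 60% were lower beside 17.6%. Reck, a membrane inhibitor of MMPs, had 3.61 and 3.58 in Ncr1Cre against 9.37 and 8.51 in control (-1.11, SE 0.095, adjusted p = 0.000936). Lrp1, an endocytic receptor that clears proteases, had 74.4 and 67.0 against 213 and 169 in control (-1.41, SE 0.13, adjusted p = 0.00112), and Thbs2, a thrombospondin, had 8.06 and 7.96 against 22.5 and 22.0 (-1.37, SE 0.076, adjusted p = 0.000318).

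Matrix substrates were mostly lower in Ncr1Cre. Of 12 tested matrix substrates, 1 rose and 11 fell (median log2 fold change -1.18), and some of them are also stromal markers. The shares were 8.33% higher and 91.7% lower, beside 30.9% and 17.6% over all tested genes. Col3a1, a fibrillar collagen, had 1690 and 1717 FPKM in Ncr1Cre against 4103 and 4118 in control (-1.27, SE 0.058, limma adjusted p = 0.000225). Col1a2, a chain of type I collagen, was lower by 1.16 on the same scale (adjusted p = 0.000278) and Bgn, the proteoglycan biglycan, by 1.37 (adjusted p = 0.000251). Of 3 tested procollagen C-proteinase genes and enhancers, 0 rose and 2 fell, or 66.7% lower beside 17.6% over all tested genes. Pcolce had 434 and 437 in Ncr1Cre against 810 and 751 in control, and Bmp1 had 92.2 and 81.4 against 166 and 162. Pcolce2 was not called (limma adjusted p = 0.0944). Of 15 tested shed substrates of ADAM10 and ADAM17, 6 rose and 6 fell (median 0.26), or 40% in each direction beside 30.9% higher and 17.6% lower over all tested genes. Hbegf, a precursor of an EGF-receptor ligand, had 56.2 and 52.2 in Ncr1Cre against 11.1 and 9.52 in control (2.29, SE 0.10, adjusted p = 0.000211). Cdh1, E-cadherin and itself an epithelial marker, had 56.6 and 54.4 against 13.09 and 12.98 (2.01, SE 0.070, adjusted p = 0.000149), and Jag1, a Notch ligand, had 17.4 and 16.0 against 4.58 and 4.41 (1.69, SE 0.090, adjusted p = 0.000294). The 6 genes that fell, named after their values were seen, were the cytokine receptor genes Il6ra, Tnfrsf1a and Tnfrsf1b, the Notch receptor genes Notch2 and Notch4, and Tgfa, another EGF-receptor ligand. Their log2 fold changes ran from -0.95 for Tgfa to -0.22 for Tnfrsf1a, and Il6ra had 6.12 and 5.31 FPKM in Ncr1Cre against 12.7 and 10.8 in control (-0.93, adjusted p = 0.00325).

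Among partners that carry ADAM10 and ADAM17 to the cell surface, the largest change was in an escort of ADAM10. Of 7 tested, 3 rose and 1 fell, a share of 57.1% beside 48.5% over all tested genes. Tspan33, a tetraspanin escort of ADAM10, had 17.8 and 14.4 FPKM in Ncr1Cre against 4.002 and 3.66 in control (log2 fold change 1.81, SE 0.13, limma adjusted p = 0.000533). Rhbdf2, which encodes the ADAM17 escort iRhom2, had 15.1 and 11.9 against 7.51 and 6.82 (0.82, SE 0.13, adjusted p = 0.00673). Tspan14 had 46.3 and 48.6 against 38.7 and 39.5 (0.27, adjusted p = 0.0260), and this call was lost after median rescaling (adjusted p = 0.122) and without any 1 of the 4 libraries (0.0610 to 0.122). Of 5 tested zinc metalloproteases of other families, 1 rose and 2 fell, or 60% called beside 48.5% over all tested genes. Mme, the peptidase neprilysin, had 6.40 and 5.79 in Ncr1Cre against 10.7 and 12.2 in control (-0.81, SE 0.10, adjusted p = 0.00330). Ece1, which activates endothelin, had 20.9 and 21.0 against 31.6 and 26.4 (-0.45, adjusted p = 0.0208, and 0.0689 without replicate 1 of the control). Pappa2, a protease of IGF-binding proteins, had 19.5 and 16.0 against 12.2 and 12.6 (0.47, adjusted p = 0.0228), and this call was lost under quantile normalization (adjusted p = 0.0608) and without replicate 1 of Ncr1Cre or either control library (0.0664 to 0.0873).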

How the data were processed

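Per the submitters' processing notes, the authors used Cufflinks and build mm9, and the deposited values are FPKM. Program versions, aligner, annotation, strand use and multiple mapping: not given in the sources used here. Groups and replicate numbers come from the labels, and the rest of the genotype is not reported here. Limma 3.58.1 in R 4.3.3, with an intensity trend, was fitted to log2(FPKM + 1) over the 11762 genes that averaged 1 FPKM or more, and p-values are two-sided and adjusted over all of them. Log2 fold changes on this scale understate the change of low genes. The fit was also run on simulated data, in which far fewer genes were changed than were called here. That run does not vouch for the calls. Files gave no counts. Fragment totals were estimated from whole-fragment steps in genes with 1 annotated transcript: 27.9% to 29.7% of low values came out whole within 0.02 fragments, so no count test was run. Replicates differed by more than sampling noise (median chi-square 2.11 in Ncr1Cre and 2.21 in control, 0.455 from sampling alone), though errors in totals and lengths also raise it. Members, gene lists, motifs and tests were chosen with earlier results of these data known. The rule for named genes took every TIMP, the members of each family with the smallest p or highest mean, every other member at least by name, and the 3 genes with the smallest p of each list of related genes. All 84 members matched the reference annotation by identifier, and 53 had a promoter window. Exons of 12 tested members overlap another annotated gene. Alternatives were another pseudocount, filter, scaling or variance prior, the replicate number as a block, and leaving out each library.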

Additional observations from a re-analysis of the deposited data

How the results depend on the processing

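Counts of calls over all genes, in the MMP and in the TIMP family stayed within 1.5 times under each alternative run. Of the ADAM genes, 3 of the 7 with a mean of at least 5 FPKM were called, against 5 of 9, since Adam8 and Adam28 fall below that filter. At that filter 4037 of all 7516 genes were called. Leaving out 1 library gave 8 to 14 calls among ADAMTS and ADAMTSL genes, against 15, with the lowest count without replicate 1 of the control. The lone library left in a genotype was assumed to vary like the others. Without a filter, 12 of 21 MMP genes were called, beside 5975 of all 17500 genes. The replicate number as a block gave 6004 calls over all genes, against 5709, and changed no call of a member. The labels share only a number, and over genes, replicate 1 minus replicate 2 in one genotype correlated at 0.16 with that in the other. Log2 fold changes that turned direction were all of genes that were not called. Adam10 went to -0.050 after median rescaling and -0.085 after quantile normalization, and Mmp24 to -0.017 and -0.10. Leaving out 1 library gave -0.44 to 0.013 for Adam9, which passed the test without replicate 2 of the control (adjusted p = 0.0338), -0.11 to 0.0065 for Adamtsl5 and -0.25 to 0.12 for Adamts6. With the highest gene of each family left out (Mmp14 and Timp2), the ratio of the TIMP to the MMP sum was 0.148 in Ncr1Cre and 0.150 in control, against 0.425 and 0.518 with them. Values well below 1 FPKM are limited by depth.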
